A study of Mus musculus with 4 samples.

Results

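The 3′ ends described here belong to 3 neighbouring mouse genes, Alb, Afp and Afm, which encode the secreted proteins albumin, alpha-fetoprotein and afamin. Each gene was taken as a window on the plus strand of chromosome 5 in the mm9 build, at chr5:90889500-90906500 for Alb, chr5:90919000-90939000 for Afp and chr5:90947500-90984000 for Afm. The windows held 30 of the 56206 clusters of cleavage positions that had 3 or more reads, with 24 in Alb, 1 in Afp and 5 in Afm. The genes were chosen by measured values of these same libraries, namely their read counts, their cleavage spread and their ratio between capture oligos. These values are therefore descriptions and carry no test.

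The reads came from 3'READS, in which RNA fragments that hold poly(A) are pulled onto beads and sequenced to find where the RNA was cleaved. The starting RNA was a commercial mix from 11 mouse cell lines, whose names and proportions the sources used here do not state. In the CU5T45 library the beads carried an oligo of 5 U and 45 T, were washed in low salt with formamide, and released their RNA through RNase H. In the oligo(dT)10-25 library the beads of a poly(A) selection kit, with 10 to 25 T, took their place. CLIP-seq of CstF64, the subunit of the cleavage stimulation factor that touches RNA, was made in 2 replicates from proliferating C2C12 myoblasts, which are a mouse muscle precursor line. Each oligo had 1 library, so no value below has a replicate check. There were 6738355 reads at 236029 positions with CU5T45 and 3482826 reads at 180853 positions with oligo(dT)10-25. A count of 0 allowed up to 3 reads, or 0.445 and 0.861 counts per 1000000 reads (CPM) in these libraries. PCR used no molecular identifiers that the labels describe, and every interval below is at 95% and covers counting error only.

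Albumin is the main protein of blood plasma and is made by hepatocytes, the parenchymal cells of the liver. Alpha-fetoprotein takes its place in the yolk sac and fetal liver and is switched off around birth, and afamin is a plasma carrier of vitamin E and of lipid-modified Wnt proteins. The 3 genes arose by duplication, lie in a row and are read in the same direction. Their RNAs, like most mRNAs, are cleaved a short way after the hexamer AAUAAA or a close variant, while CstF64 touches U-rich or GU-rich RNA beyond the cut, and poly(A) is added to the new end.

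The sequences around the annotated ends are shown first because they place the mapped ends against the cleavage signal. They were read from GENCODE vM21 on GRCm38, another build than that of the reads, and the hexamer AATAAA or ATTAAA is in capitals. Each printed stretch has 30 bases. The Alb-201 end lies at chr5:90476573-90476602 on the plus strand, the Afm-201 end at chr5:90553514-90553543, the end of the shorter Afm-202 transcript at chr5:90549028-90549057, and the Afp-201 end at chr5:90508878-90508907. A second stretch of Afp holds an AATAAA further upstream, at chr5:90508832-90508861.
Alb-201 end: ctgcaattAATAAAaaatggaaagaatcta
Afm-201 end: caaaaggcAATAAAatgaaaggataaagtt
Afm-202 end: taaatatataAATAAAacctcatgagtcaa
Afp-201 upstream hexamer: taggAATAAAaacttttcaactatttctct
Afp-201 end: ttttttATTAAAaaatacttttttccattt
In Alb-201 and Afm-201 the hexamer began 21 nt before the last base, and in Afm-202 it began 19 nt before it. The last 40 nt held AATAAA in 39.3% and ATTAAA in 11.1% of 58791 annotated protein-coding transcripts, searched on the RNA strand only. A hexamer is a match of letters and was not tested as a signal.

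No coordinate was converted between the builds. Instead, the spacing of mapped ends in mm9 was set beside the spacing of annotated ends in GRCm38. The most used Alb and Afm positions lay 76942 nt apart, and the Alb-201 and Afm-201 ends 76941 nt apart, so the label of both windows held to within 1 nt. The sources used here do not state whether deposited positions count from 0 or 1, which leaves a single position exact to 1 nt at best.

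Alb was the most abundant of the 3 genes in both libraries. The level of an RNA in a mix of lines depends on how many cells make it and on how much each cell holds, and these cannot be told apart. Its window held 43841 CU5T45 reads, or 6506 CPM (interval 6445 to 6567). It held 63788 oligo(dT)10-25 reads, or 18315 CPM (18173 to 18458). Alb thus made up 0.651% of the CU5T45 library and 1.83% of the oligo(dT)10-25 library, a share 2.82-fold lower with CU5T45 (2.78 to 2.85).

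Afm, the gene furthest downstream, stood far below Alb. Its window held 205 CU5T45 reads, or 30.4 CPM (26.4 to 34.9), and 602 oligo(dT)10-25 reads, or 172.8 CPM (159 to 187). The Afm share was 5.68-fold lower with CU5T45 (4.84 to 6.69). Since a 3'READS read marks 1 RNA end whatever the length of the RNA, read counts of genes were set side by side without a length correction. Alb had 214 reads per Afm read with CU5T45 (186 to 247) and 106 with oligo(dT)10-25 (97.8 to 115).

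Afp, the fetal member between them, was close to the limit of detection. Its window held 4 CU5T45 reads, or 0.594 CPM (0.162 to 1.52), and 1 oligo(dT)10-25 read, or 0.287 CPM (0.00727 to 1.60). The ratio of shares of 2.07 had an interval from 0.205 to 102, so no difference between the oligos was detectable for Afp at this depth. Afm had 51.25 reads per Afp read with CU5T45 (19.7 to 190), and Alb had 10960 (4280 to 40228). The order Alb, Afm, Afp was thus the same with both oligos, and the intervals of neighbouring genes did not overlap.

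Nearly all reads of the Alb window sat in 1 cluster, chr5:90905502-90905675, in which positions were joined while the gap was at most 24 nt. This main cluster held 43200 CU5T45 reads and 63530 oligo(dT)10-25 reads, and its share was 2.85-fold lower with CU5T45 (2.81 to 2.88). Among nuclear clusters it ranked 9th by reads with CU5T45 and 2nd with oligo(dT)10-25. The Afm main cluster peaked at position 90982569 with 187 and 597 reads, and its share was 6.18-fold lower with CU5T45 (5.23 to 7.32). It ranked 4287th with CU5T45 and 770th with oligo(dT)10-25.

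Both main clusters were thus more than 2-fold lower with CU5T45, as were 14.2% of the 16636 nuclear clusters with 30 or more reads. The ratio of CU5T45 to oligo(dT)10-25 shares was 0.351 at the Alb cluster and 0.162 at the Afm cluster, while the median over those nuclear clusters was 1.08, with 5% below 0.267. A ratio lower than that of Alb occurred in 7.76% of them, and one lower than that of Afm in 2.43%. Of the 114 nuclear clusters with 10000 or more reads, Alb included, 10.5% were at least 2-fold lower with CU5T45 and 5 had a lower ratio than Alb. The ratio was part of how the genes were picked, so these shares only place the values.

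The abundant clusters outside the windows with ratios nearest to that of Alb are given by position. The cluster on chromosome 10 at 43304068, plus strand, had 5001 and 7186 reads and was 2.78-fold lower with CU5T45. The cluster on chromosome 2 at 164144188, plus strand, had 6069 and 9358 reads and was 2.98-fold lower. The cluster on chromosome 5 at 88437558, plus strand, had 13982 and 18830 reads and was 2.61-fold lower. Likeness was measured over 1 pair of libraries only.

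Cleavage of Alb was concentrated on a single nucleotide with either oligo. Position 90905627 took 39966 of the main-cluster reads with CU5T45, or 92.5% (92.3 to 92.8), and 58270 with oligo(dT)10-25, or 91.7% (91.5 to 91.9). The effective number of positions, the inverse of the sum of squared shares, was 1.17 and 1.18. The position lay 21 nt after the start of the AATAAA printed above for Alb-201, taking the mapped end as the annotated one.

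Afm was also cleaved mainly at a single nucleotide. Position 90982569 took 82.9% of its main-cluster reads with CU5T45 (76.7 to 88.0) and 89.4% with oligo(dT)10-25 (86.7 to 91.8), with 155 and 534 reads. The effective number of positions was 1.43 and 1.24. The intervals of the oligos overlapped for Afm. Against Alb, the Afm share at the peak was lower with CU5T45 beyond the intervals, and the intervals of the 2 genes overlapped with oligo(dT)10-25.

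For comparison, 3903 nuclear clusters had 100 or more reads in each library. Their median share of reads at the most used position was 75.8% with CU5T45 and 76.1% with oligo(dT)10-25, and their median effective number was 1.65 and 1.64. The Alb share of reads at 1 position was at or above that of 76.4% of these clusters with CU5T45 and 73.7% with oligo(dT)10-25. For Afm these values were 59.4% and 69.3%. Neither gene was thus at an extreme of the range in concentration.

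The number of positions behaved otherwise. Alb reads in the main cluster fell on 51 positions with CU5T45 and 34 with oligo(dT)10-25, over spans of 174 and 167 nt, and the median cluster had 8 positions with both libraries together. A number of positions no higher than that of Alb was found in 99.9% of the 3903 clusters. This number grows with reads, and Alb ranked 5th by reads of both libraries together. The read-weighted SD of the Alb positions was 6.05 nt with CU5T45 and 2.76 nt with oligo(dT)10-25, so the few reads away from the peak lay wider with CU5T45.

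The next most used Alb positions lay within 4 nt of the peak. Position 90905623, at -4 nt, had 1928 and 4266 reads and was 4.28-fold lower with CU5T45 (4.06 to 4.52). Position 90905628, at 1 nt, had 451 and 390 reads and was 1.67-fold lower (1.46 to 1.92). Position 90905625, at -2 nt, had 268 and 369 reads and was 2.66-fold lower (2.27 to 3.13). The peak itself was 2.82-fold lower (2.79 to 2.86). Positions at -4 and 1 nt therefore differed from the peak in ratio by more than the counting intervals, and the position at -2 nt did not. All were lower with CU5T45.

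Further upstream in the same cluster the ratio turned. Position 90905614, at -13 nt, had 217 CU5T45 reads and 51 oligo(dT)10-25 reads, a share 2.20-fold higher with CU5T45 (1.61 to 3.05). Position 90905537, at -90 nt, had 83 and 6 reads, a ratio of 7.15 (3.15 to 20.0). Of the 8 positions of the Alb main cluster with 30 or more reads, 5 had an interval below 1 and 3 an interval above 1, against 23.3% and 27.6% of nuclear clusters. These background shares count clusters and not positions.

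Summed by distance, the split in the Alb cluster followed the peak closely. Positions from -4 to 5 nt held 42672 and 63419 reads, 98.8% and 99.8% of the cluster, and were 2.88-fold lower with CU5T45 (2.84 to 2.91). The 2 positions at -13 and -12 nt held 258 and 54 reads, a ratio of 2.47 (1.84 to 3.38). The 42 positions from -125 to -24 nt held 252 and 47 reads, a ratio of 2.77 (2.02 to 3.87). Position 90905537, at -90 nt, gave 83 and 6 of these reads. At every listed position from -125 to -104 nt the share was instead lower with CU5T45, with at most 5 reads per library at each. The higher CU5T45 share thus did not hold over the whole stretch. The positions from 6 to 48 nt held only 18 and 10 reads, and their ratio of 0.930 was not separable from 1 (0.407 to 2.26). The upstream reads lay inside the last exon, which runs from -142 nt to the annotated end by distance.

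The shape of the Alb cluster still differed little between oligos, because so few reads were involved. The part of the reads that would have to move to turn the profile of one library into the other was 2.34%, against a median of 5.42% over the 3903 clusters. For Afm, with 187 CU5T45 reads in its main cluster, it was 7.33%. Counting error raises this measure where reads are few. The 3903 clusters needed only 100 reads in each library, against 43200 and 63530 for Alb. Alb and the median were therefore not compared at equal depth. Among 113 abundant clusters, the ratio of the other positions was above that of the peak in 54.9%. In Alb it was below, by 0.16 on the log2 scale, because position 90905623 at -4 nt makes up most of those reads.

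The Afm cluster was similar around its peak. Position 90982565, at -4 nt, had 16 and 42 reads and was 5.08-fold lower with CU5T45 (2.80 to 9.68). Positions from -4 to 1 nt together held 175 and 589 reads and were 6.51-fold lower (5.49 to 7.75). The positions beyond 5 nt held 12 and 8 reads, a ratio of 0.775 (0.291 to 2.19), most of them at position 90982582, at 13 nt, with 10 and 6. Position 90982567, at -2 nt, had 1 and 5 reads, and 90982566, at -3 nt, had 2 and 4. In both genes the second most used position lay at -4 nt.

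**Figure D1:**
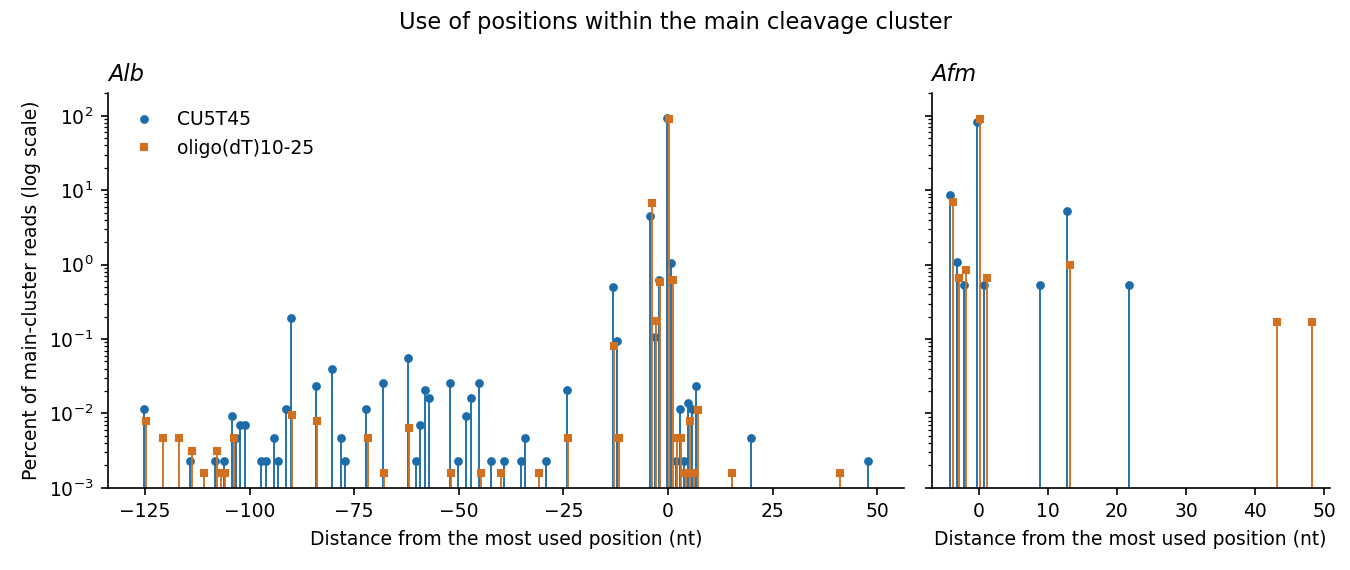
Percent of main-cluster reads (log scale) at each position against its distance in nt from the most used position, for Alb (left) and Afm (right), with circles for CU5T45 and squares for oligo(dT)10-25. One position holds 92.5% and 91.7% of Alb reads, and the CU5T45 points stand above the oligo(dT)10-25 points at most Alb positions from -90 to -12 nt.

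Away from the main cluster, the Alb window held 641 CU5T45 reads and 258 oligo(dT)10-25 reads. These reads were 1.46% of the Alb reads with CU5T45 (1.35 to 1.58) and 0.404% with oligo(dT)10-25 (0.357 to 0.457). With the main end taken as the positions within 10 nt of the peak, the CU5T45 value was 2.63% (2.48 to 2.79). In share of the library they were 1.28-fold higher with CU5T45 (1.11 to 1.49), while the main end was lower. Part of the gap in percent therefore came from the smaller share of main-end reads with CU5T45.

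A similar comparison used a fixed frame of 16127 nt upstream and 873 nt downstream of each abundant cluster. It covered the 70 abundant clusters, Alb included, that had 30 or more reads elsewhere in this frame. The ratio away was at least 2-fold above that of the main cluster in 18.6% of them. The log2 difference was 1.87 at Alb and 0.11 at the median, and 6 clusters exceeded Alb. Among the 9 of them that were 2-fold lower with CU5T45, it ran from 0.98 to 4.88 with a median of 2.39. Such clusters were chosen for a low main ratio, which raises this difference by construction. The fixed frame can also take in other strong ends. At the chromosome 16 cluster at 10788027, minus strand, it held 41675 and 12952 reads away from the cluster. The nearby abundant cluster at 10791472 had 40328 and 12542 in all. The values at other clusters thus do not describe reads inside 1 gene only.

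**Figure D2:**
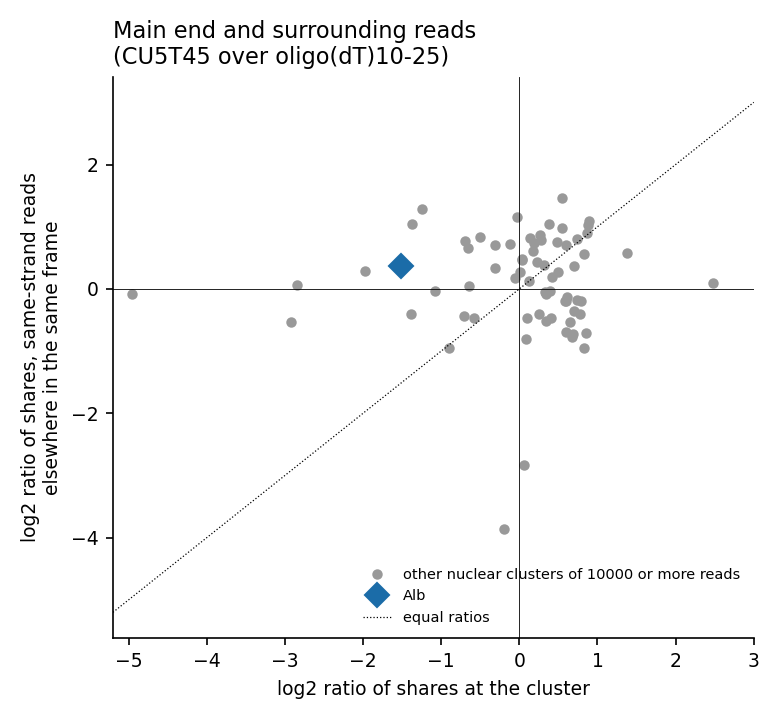
The log2 ratio of shares, CU5T45 over oligo(dT)10-25, of same-strand reads elsewhere in the frame against that of the main cluster, for nuclear clusters of 10000 or more reads, with Alb as a diamond and equal ratios as a dotted line. Alb lies 1.87 above the line, and 6 clusters lie further above it.

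Upstream of the main cluster, Alb reads lay where the exons are. By distance from the end, 436 of 462 upstream reads, or 94.4%, fell in exons 1 to 14 of Alb-201, although exons, the last included, cover 13.0% of the gene. Every one of these 14 exons had reads, at 212 positions. The introns had 26 reads at 18 positions.

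Exons 8 to 14 held 30.8 reads per 100 nt and exons 1 to 7 held 14.2, both libraries together. The density did not rise steadily toward the end of the gene, and was 21.1 in exon 13 and 10.3 in exon 14. Exon 10 was the densest, with 44 CU5T45 and 16 oligo(dT)10-25 reads, or 61.2 per 100 nt, and exon 1 the thinnest, with 2 and 4 reads, or 5.13 per 100 nt. Exon 9 had the most reads, with 57 and 17, of which 32 and 2 came from the single position 90898596. Of the 230 upstream positions, 65.7% had 1 read.

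In share of the library, the exon reads were 1.59-fold higher with CU5T45 (1.27 to 2.00). The intron reads, 17 and 9, gave a ratio of 0.976 (0.412 to 2.49). The 2 intervals overlap, and the difference between exons and introns was not tested. The filter that a read passed before its position was listed is not stated in the sources used here, and capture of A-rich stretches inside the RNA cannot be told apart from cleavage there.

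**Figure D3:**
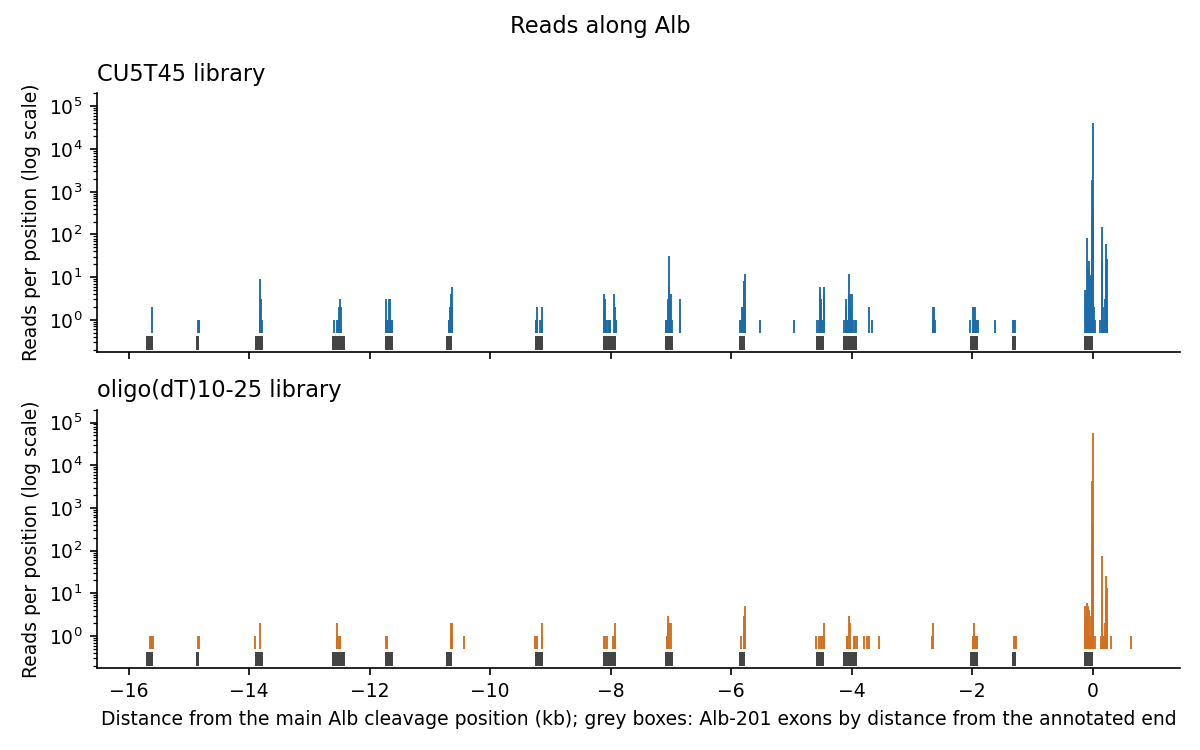
Reads per position (log scale) along Alb against the distance in kb from its main position, for CU5T45 (top) and oligo(dT)10-25 (bottom), with the exons of Alb-201 as grey boxes placed by distance from the annotated end. The upstream reads stand over the boxes, 436 of 462, and exons 1 to 14 each have some.

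Joined into clusters, the Alb reads outside the main end gave 39 clusters, of which 14 had 1 read and 15 had 10 or more. Of these 15, which held 10 to 268 reads, 14 had a ratio above 1, with 3 reads in place of a count of 0. The ratio was only 1.03 for the clusters with 14 and 7, 20 and 10, and 10 and 5 reads. For the cluster with 12 and 0 reads, the 3 reads set in place of 0 gave 2.07. The median ratio of nuclear clusters with 30 or more reads was itself above 1, at 1.08, so most of those clusters were above 1 as well. An interval above 1 was found for 4 of the 15 and below 1 for 0. Over nuclear clusters with 10 or more reads these shares were 18.3% and 19.0%. With so few reads, most of the 15 could not be told from an equal share.

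The 2 largest lay beyond the annotated end. The cluster at chr5:90905753-90905807, from 126 to 180 nt, had 181 and 87 reads, a ratio of 1.08 (0.828 to 1.41). The cluster at chr5:90905833-90905872, from 206 to 245 nt, had 114 and 53 reads, a ratio of 1.11 (0.796 to 1.57). These downstream ends were captured in near-equal shares by the oligos, within intervals that exclude the ratio of the main end. The main position of the nearer one lay at 152 nt, with 148 and 73 reads, and a second at 157 nt had 24 and 7. Afm had positions at the same 152 and 157 nt from its own end, with 1 and 2 CU5T45 reads and no oligo(dT)10-25 read. These Afm reads do not exceed the 3 that a count of 0 allows, and the match was picked after it was seen.

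The next 3 were exonic by distance. The cluster at chr5:90898542-90898649 in exon 9 had 57 and 17 reads, a ratio of 1.73 (0.994 to 3.18). The cluster at chr5:90899774-90899860 in exon 10 had 44 and 16 reads, a ratio of 1.42 (0.786 to 2.70). The cluster at chr5:90901502-90901629 in exon 12 had 51 and 8 reads, a ratio of 3.30 (1.55 to 8.04), and was the only one of the 5 with an interval above 1.

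Afm had 18 CU5T45 reads and 5 oligo(dT)10-25 reads outside its main cluster, in 9 clusters that all stayed below 10 reads. They were 8.78% of its CU5T45 reads (5.29 to 13.5) and 0.831% of its oligo(dT)10-25 reads (0.270 to 1.93). With the main end taken as the positions within 10 nt of the peak, these shares were 14.1% and 2.16%, and without positions of 1 read the oligo(dT)10-25 share was 0.335%. In share of the library the ratio was 1.86, with an interval from 0.666 to 6.41. It was 1.15 (0.581 to 2.42) with the 10 nt end and 3.07 (0.683 to 28.2) without positions of 1 read, so its size was poorly fixed. As in Alb, this ratio was above that of the main end, and its interval lay clear of it.

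The most used of these Afm positions, 90978082, had 6 CU5T45 reads and 0 oligo(dT)10-25 reads. It lay 72455 nt from the Alb end, and the annotated Afm-202 end lies 72455 nt from the Alb-201 end. Afm-202 is a transcript of 10 exons, against 15 in Afm-201, and its own AATAAA is printed above. With 6 reads against a limit of 3, no difference between the oligos was detectable for this shorter form.

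The 2 Afp positions did not fall on the annotated end. Position 90937879 had 2 CU5T45 reads and 1 oligo(dT)10-25 read, and position 90937881 had 2 and 0. By distance from Alb they lay 53 and 51 nt before the end of Afp-201, and 18 and 20 nt after the start of the upstream AATAAA, in place of the ATTAAA at the end. The 5 reads are too few to give the shape of this end.

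**Figure D4:**
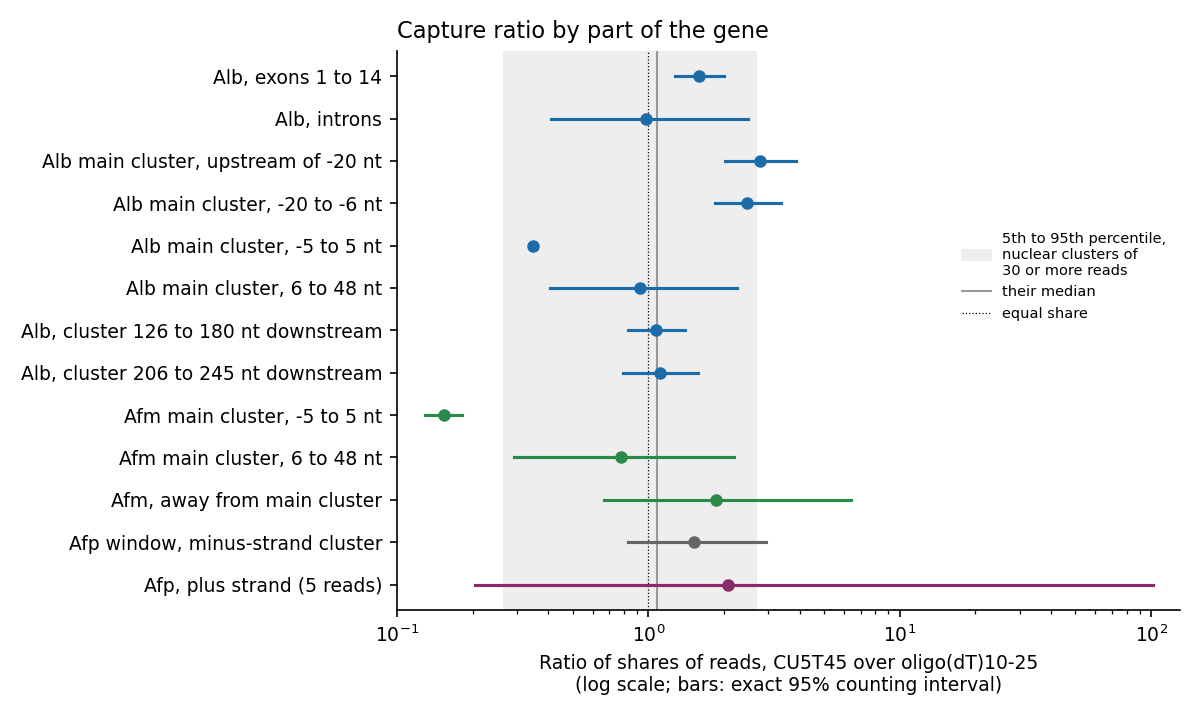
Ratio of the share of reads with CU5T45 to that with oligo(dT)10-25 (log scale) by part of each gene, with exact 95% counting intervals as bars and the 5th to 95th percentile of nuclear clusters of 30 or more reads in grey. The parts at the Alb and Afm peaks lie far below 1, the upstream Alb parts other than introns lie above 1, and the Afp interval spans 0.205 to 102.

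The opposite strand gave the background of the windows. No minus-strand read fell in the Alb window with either oligo, which allows up to 3 reads in each library. The Afm window had 1 and 0. The plus-strand reads of both genes thus stood clear of the minus strand. The Afp window instead had more reads on the minus strand, 48 and 16, than on the plus strand.

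Most of these formed a cluster at chr5:90928102-90928113 with 44 and 15 reads, a ratio of 1.52 (0.828 to 2.93). Its peak lay 22486 nt from the Alb end, the same distance as the annotated end of Gm43449, an RNA of 2 exons read against Afp. The last 30 bases of that transcript, at chr5:90499088-90499117 on the minus strand of GRCm38, begin with the hexamer, 29 nt before the last base.
Gm43449 end: AATAAAggattgagtctttgttactgataa
Its peak position 90928113 had 27 and 10 reads, and position 90928105, 8 nt further along the minus-strand RNA, had 15 and 5. In both libraries the antisense end was thus better covered than the Afp end.

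The plus-strand positions nearest to the windows had few reads. The nearest before the Alb window was 90797586, 91914 nt from its border, with 2 and 0 reads. The nearest after the Alb window was 90909126, at 2626 nt, with 2 and 0. The nearest after the Afm window was 90985028, at 1028 nt, with 0 and 1. Between the Alb and Afp windows there were 3 plus-strand reads with CU5T45 and 0 with oligo(dT)10-25, and between Afp and Afm 0 with either.

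CstF64 CLIP gave no alignment at the 3 genes. Counted by midpoint, the Alb, Afp and Afm windows and the gaps between them held 0 alignments on both strands in both replicates, out of 1101047 and 1352122 distinct alignments. A count of 0 allows 3 alignments per replicate, or 0.176 per kb of 1 strand over Alb, 0.150 over Afp and 0.0822 over Afm. Chromosome 5 as a whole had 0.464 and 0.569 per kb over both strands together.

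Empty windows were common. Cut into tiles as long as each window, the plus strand of chromosome 5 had no alignment in either replicate in 75.0% of the tiles for Alb, 73.2% for Afp and 66.3% for Afm. The stretch without any alignment around the genes was 146087 nt in replicate 1 and 157415 nt in replicate 2. Gaps longer than these numbered 195 of 42115 and 175 of 45275 on the chromosome. These are counts of gaps and not shares of the chromosome, of which a long gap covers more than a short one. They therefore do not say how often a gene would fall in such a gap.

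Many abundant ends of the cell mix were also without CLIP in C2C12 cells. Of the 114 clusters with 10000 or more reads, 58.8% had 0 alignments within 100 nt on the same strand in both replicates, and 44.7% had 0 in the whole Alb frame. 3'READS of C2C12 cells alone were not analysed here, so a lack of the RNA and a lack of binding cannot be told apart.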

How the data were processed

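3'READS of the 11-line mix (1 library per oligo) and 2 CstF64 CLIP-seq replicates were used. Per the labels' protocols, libraries had 12 PCR cycles and 72 nt reads. The submitters' processing notes name mm9, Bowtie and Novoalign, with neither versions nor roles, and read filters are not given in the sources used here. The authors deposited read counts per cleavage position, or per distinct alignment for CLIP, with no normalization stated per the labels.

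Positions of both 3'READS libraries were chained per strand at gaps of at most 24 nt, in Python 3.11.15 with scipy 1.17.1, pandas 2.3.3 and numpy 2.4.6, and plots used matplotlib 3.10.9. Ratios of library shares have exact conditional binomial intervals, percentages Clopper-Pearson intervals and CPM exact Poisson intervals. A count of 0 was taken to allow up to 3 reads and was set to 3 in a ratio, while intervals used the count of 0 itself. Clusters compared with the genes had 30 or more reads, 100 or more in each library for cleavage spread, or 10000 or more. No p-value was computed, since each oligo had 1 library. The ratio and its interval were tested on simulated data. CLIP was counted by midpoint and replicate, and whether the replicates were separate cultures is not given.

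The text names the 3 main clusters, other clusters of 10 or more reads (5 per gene in full), the 5 most used positions per main cluster, and the 3 abundant clusters of 10000 or more reads with ratios nearest to Alb. The positions at -90 and -12 nt of Alb, those at 152 and 157 nt, 90898596, the exons, the Afm-202 and Gm43449 ends and the edge positions fall outside this rule and were chosen after their values were seen. Members, lists and tests were chosen with earlier results of these data known. The mm9 genome, proteins and sequence around internal positions were not used here. Alternatives changed totals, depth, read minimum, cluster gap and CLIP counting.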

Additional observations from a re-analysis of the deposited data

Results flagged for a closer look

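A position on the minus strand lay between the Afp and Afm windows, outside the regions compared above. Position 90939862 had 7 CU5T45 reads and 4 oligo(dT)10-25 reads, both above the 3 reads that a count of 0 allows. By distance it lay inside the annotated span of Gm43449 and outside both of its exons.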

How the results depend on the processing

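Of the alternatives run, 166 kept their value, 32 moved it and 3 reversed it. A value was kept if it stayed within its 95% counting interval or, for CLIP, if the count was unchanged. The 15 and 21 CLIP alternatives, by window and around the peak, all stayed at 0. Thinning CU5T45 leaves the oligo(dT)10-25 counts as they were, and the Afp ratio had an interval from 0.205 to 102. Not all of the 166 could therefore have changed. Counting each position once over the total of positions turned the ratio to 1.31 (1.06 to 1.63) for Alb, 1.15 (0.730 to 1.83) for the Alb main cluster and 1.15 (0.524 to 2.62) for Afm, and gave 0.766 (0.251 to 2.34) for the Afm main cluster. The last 3 intervals span 1. By construction this weighs a position of 1 read like the peak. Totals without mitochondrial reads gave 0.345 for Alb, 0.341 for its main cluster and, added after seeing the data, 0.344 for position 90905627. Without positions of 1 read, the Alb ratio was 0.351 and the Alb share outside the main cluster 1.19% with CU5T45 and 0.283% with oligo(dT)10-25. A gap of 10 nt gave an Alb ratio away from the end of 1.51, shares outside of 2.04% and 0.480%, and with CU5T45 93.1% at the peak and 1.15 effective positions. A main end of 10 nt to either side of the peak, chosen after seeing the data, gave 1.65, 2.63%, 0.566%, 93.6% and 1.14 for the same Alb values. For Afm it gave 88.1% at the peak with CU5T45 and shares outside of 14.1% and 2.16%. Thinning CU5T45 to the depth of oligo(dT)10-25 left Afp with 100% at 1 position, an effective number of 1, and 15.2% and 11.5% of nuclear clusters 2-fold lower and higher. A minimum of 10 reads gave 17.1% and 15.8%, with 19.0% and 18.3% of intervals below and above 1, and a minimum of 100 reads gave 11.2%, 10.7%, 26.3% and 40.3%. Apart from the 3 reversals, the direction of the ratio held for Alb and Afm. CLIP counts at the 3 genes ranged from 0 to 0 without replicate 1 or replicate 2 and stayed at 0 under the other alternatives. Depth limits Afp, Afm-202 and most internal positions. No paired analysis was possible because the oligos had 1 library apiece and both CLIP replicates belong to 1 group.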
